A study of Homo sapiens with 42 samples.

Results

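The 9 genes described here encode the machinery that makes and breaks down glycogen, and their transcripts were followed in 786-O cells carrying different forms of the HIF-α subunit. They were GYS1, GBE1, UGP2, PGM1, GYG1, PPP1R3B, PPP1R3C, PYGL and PYGB, chosen by name. All 9 were found, each as 1 row among 60609 genes, and all 9 passed the filter on low counts (a mean normalized count of at least 0.5) in both batches of libraries. 786-O is a human clear cell renal cell carcinoma line in which loss of VHL leaves HIF-2α stabilized and which lacks functional HIF-1α, so every group, WT cells included, kept its endogenous HIF-2α. Poly-A RNA was sequenced in 42 libraries, 3 biological replicates for each of 14 groups.

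The first batch held 27 libraries in 9 groups. Of these, 1 was the unedited WT line, and the clones HIF-1β KIN and HIF-2α KIN carry a HaloTag on the endogenous protein. The rest were 6 stable lines made from WT cells. The lines expressed a V5-Halo-tagged HIF-1α, HIF-1α R30E, HIF-1αDM, HIF-2α, HIF-2α R27E or HIF-2αDM from a weak L30 promoter after PiggyBac transposition. R30E and R27E impair DNA binding, and DM marks mutants that cannot dimerize with HIF-1β. The genotype label of the HIF-2αDM libraries names HIF-1α, and they were grouped by their title. The second batch held 15 libraries in 5 groups, namely WT cells, the full-length HIF-1α and HIF-2α lines, and 2 chimeras. HIF-2α/1α joins the N-terminal structured domains of HIF-2α (DNA-binding and dimerization) to the C-terminal intrinsically disordered region (IDR) of HIF-1α. HIF-1α/2α is the reverse chimera. Each KIN line is 1 clone, and the transgene lines are antibiotic-selected lines in which the endogenous gene was still present. The chimeras were made to ask which part of HIF-α sets isoform-specific regulation.

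Glycogen is a branched glucose polymer that cells store as a fuel reserve, and clear cell renal cell carcinoma takes its name from cytoplasm that looks empty after glycogen and lipid are washed out. Glucose 6-phosphate is turned into glucose 1-phosphate by phosphoglucomutase (PGM1), which UDP-glucose pyrophosphorylase (UGP2) activates to UDP-glucose. Glycogenin (GYG1) primes the chain, glycogen synthase (GYS1, the muscle-type form) extends it, and the branching enzyme (GBE1) adds branch points. PPP1R3B and PPP1R3C are glycogen-targeting subunits that bring protein phosphatase 1 to glycogen, where it activates the synthase and restrains phosphorylase. Glycogen phosphorylase, in its liver (PYGL) and brain (PYGB) forms, releases glucose 1-phosphate from the chain ends. HIF dimers bind a short DNA motif, the hypoxia response element, with the core ACGTG or GCGTG, and glycogen synthesis genes have long been known as hypoxia-inducible.

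The 250 bases before the start of GBE1 and PPP1R3C are shown because both genes were higher than in WT cells in more than 1 line of the second batch. They were read from RefSeq promoters on GRCh38.p14, at chr3:81761646-81761895 and chr10:91633072-91633321, minus strand. Capitals mark every ACGTG or GCGTG on either strand, read on the other strand as CACGT or CACGC.
GBE1: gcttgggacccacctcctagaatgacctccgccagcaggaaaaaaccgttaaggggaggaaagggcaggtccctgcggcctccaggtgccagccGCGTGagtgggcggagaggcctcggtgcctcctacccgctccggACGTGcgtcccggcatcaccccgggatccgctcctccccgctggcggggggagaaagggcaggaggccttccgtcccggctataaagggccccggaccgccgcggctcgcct
PPP1R3C: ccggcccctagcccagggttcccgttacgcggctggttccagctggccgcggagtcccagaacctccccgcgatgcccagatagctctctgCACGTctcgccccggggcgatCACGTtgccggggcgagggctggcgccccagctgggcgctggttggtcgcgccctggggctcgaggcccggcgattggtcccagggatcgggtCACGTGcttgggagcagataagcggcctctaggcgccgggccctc
GBE1 held 2 matches in this window, GCGTG 156 bases and ACGTG 112 bases before the start. PPP1R3C held 4, at 159, 138, 45 and 44 bases, of which the last 2 overlap because CACGTG reads the same on both strands. Over all RefSeq promoters listed, 43.2% of 35116 held at least 1 match in the 250 bases before the start, and 48.4% in the whole 300 bases, so a match by itself is common. For the ACGTG form alone these shares were 18.5% and 21.4%. Among the other members with a single listed promoter, GYS1, PYGB and GYG1 held 2, 3 and 3 matches in 300 bases and PYGL held none. PGM1 and UGP2 have several listed starts and are not counted here.

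First-batch libraries held 42377599 to 101186554 counted reads, and second-batch libraries 76366799 to 109642159. Levels are in CPM, counts scaled by TMM to a common library size, and 3 counts, taken as the detection floor, correspond to at most 0.0713 CPM. The renal and epithelial markers PAX8 and KRT8 were present in all libraries, between 206 and 559 CPM and between 767 and 2650 CPM, whereas CA9 ran from 0 to 68.7 CPM. Of 7 markers of other cell types, only LUM, at up to 3.57 CPM, exceeded 0.2 CPM in any library. HIF1A, which also collects reads of a HIF-1α transgene, averaged 3.29 CPM in second-batch WT cells, 10.4 with HIF-2α and 107 to 148 in the other 3 lines. EPAS1, the gene of HIF-2α, rose from 142 CPM in WT cells to 473 (HIF-2α) and 572 CPM (HIF-1α/2α), and was 184 and 231 CPM with HIF-1α and HIF-2α/1α. In the first batch HIF1A averaged 33.3 to 45.2 CPM in the 3 HIF-1α lines against 3.62 in WT cells, and EPAS1 673 to 836 CPM in the 3 HIF-2α lines against 217. EPAS1 was uneven among the HIF-1α lines, at 342 CPM for the wild-type form, 154 for R30E and 170 for DM. The wild-type form exceeded R30E by a log2 difference of 1.15 (adjusted p = 0.000429) and DM by 1.01 (adjusted p = 0.00251). In the KIN clones, which carry no transgene, EPAS1 averaged 155 CPM (HIF-1β KIN) and 91.7 CPM (HIF-2α KIN), the latter lower than in WT cells (log2 change -1.24, adjusted p = 8.6e-05). HIF1A in the HIF-1α line was at 45.2 CPM in the first batch and at 148 CPM in the second. First-batch libraries that share a replicate number deviated together from their group means, most of all those numbered 3. PPP1R3B, for example, was lowest in the library numbered 3 among WT cells (4.98 CPM), HIF-1β KIN (4.44 CPM) and HIF-2α KIN libraries (3.49 CPM).

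In the authors' build hg38, with positions from GENCODE release 44, the synthesis genes lay at chr1:63593411-63660245 (PGM1, plus strand), chr2:63840952-63891562 (UGP2, plus), chr3:148991408-149031775 (GYG1, plus), chr19:48968130-48993310 (GYS1, minus) and chr3:81489703-81761645 (GBE1, minus). The regulators lay at chr8:9136255-9151574 (PPP1R3B, minus) and chr10:91628442-91633071 (PPP1R3C, minus). The phosphorylases lay at chr14:50857891-50944483 (PYGL, minus) and chr20:25248085-25298012 (PYGB, plus). Reads were counted over exons without regard to strand. GYG1 shares 1649 exonic bases with HLTF on the other strand, so its counts are uncertain, and PGM1 shares 197 with ITGB3BP. PPP1R3B, PYGL and UGP2 share 245, 180 and 27 exonic bases with antisense noncoding genes.

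Levels between genes were compared per kilobase of exon (RPKM). In WT cells of the second batch PYGB was highest at 67.4 RPKM, followed by PGM1 at 37.3, GYS1 at 20.2 and PYGL at 19.4. UGP2 was at 13.2 RPKM, GBE1 at 12.1 and GYG1 at 7.48. The phosphatase regulators were the scarcest, PPP1R3B at 1.53 and PPP1R3C at 0.971 RPKM. In the HIF-1α/2α line PPP1R3C reached 33.2 RPKM, above GYS1 at 18.3 RPKM in the same libraries.

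In the second batch PPP1R3C was higher than in WT cells in every line with an added HIF-α, and PPP1R3B and GBE1 in some of them, by the threshold given next. No other member reached that threshold. A gene was called where its adjusted p-value was 0.01 or less and it changed 2-fold or more. Against WT cells 2 of the 9 genes were called higher in the HIF-1α line, 1 in HIF-2α/1α, 2 in HIF-2α and 3 in HIF-1α/2α, and none was called lower. Of all genes tested, 4.39%, 3.48%, 7.55% and 7.72% were called in these comparisons, in either direction. The median log2 change of the 9 genes was 0.69, 0.18, -0.05 and 0.25 for these 4 lines, and that of all genes tested was 0.03, 0.02, 0.05 and 0.06.

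**Figure D1:**
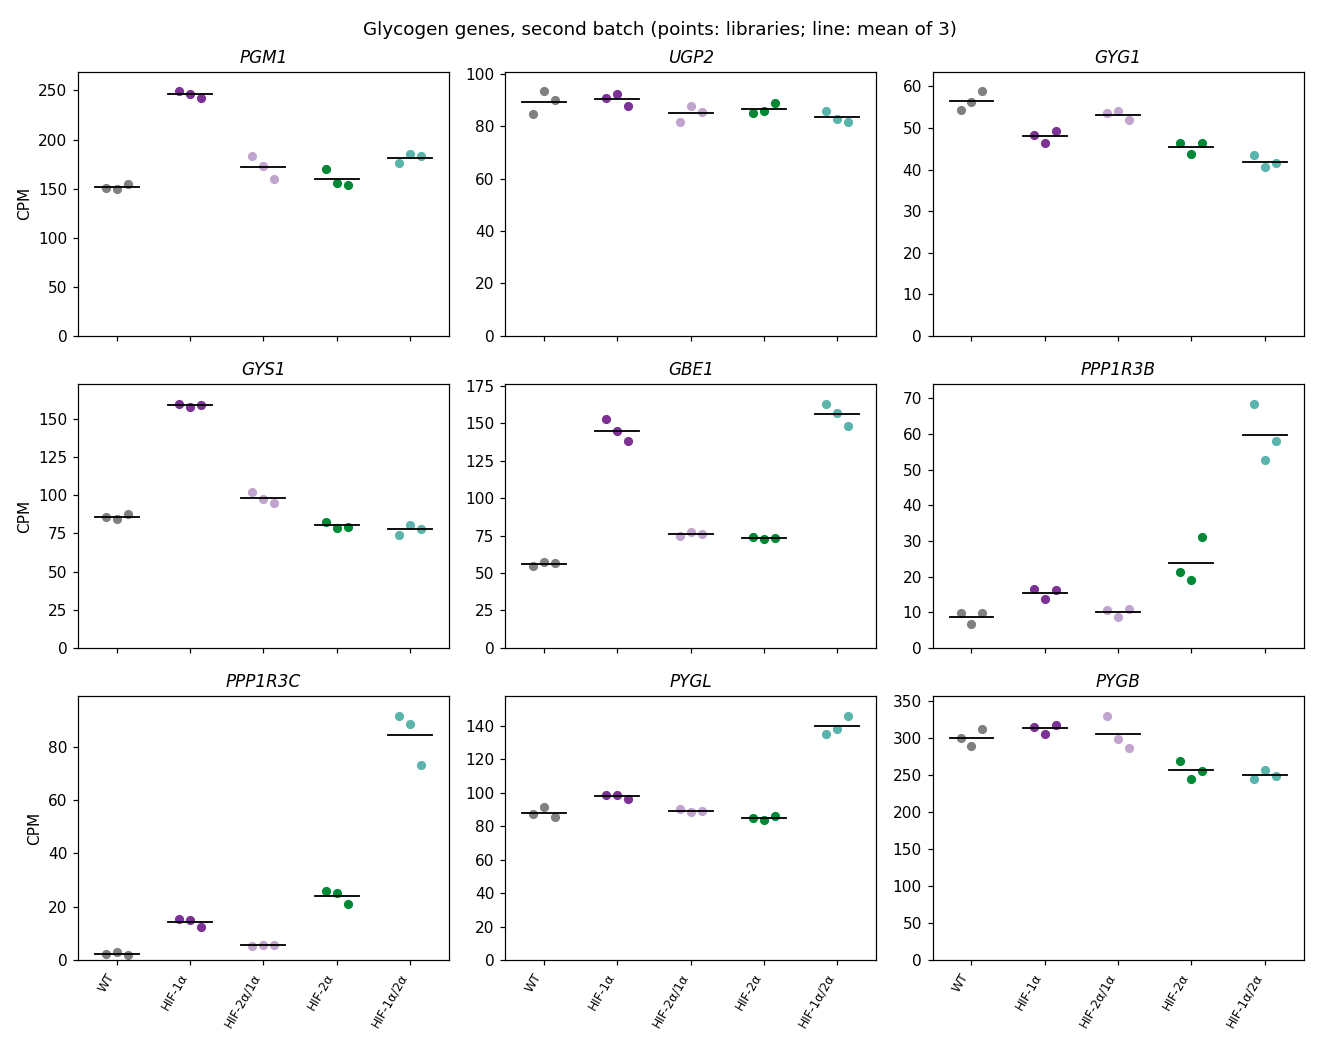
Level of each glycogen gene in CPM (linear axis from 0) in every library of the second batch, by line, with a bar at the mean of 3 libraries. PPP1R3C climbs in 4 clear steps above WT cells, from 5.56 CPM with HIF-2α/1α to 84.3 with HIF-1α/2α, whereas GYS1 and PGM1 are highest with HIF-1α.

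PPP1R3C moved most. Its level was 2.31, 3.07 and 2.01 CPM in the 3 WT libraries and 5.35, 5.65 and 5.69 CPM with HIF-2α/1α. It was 15.5, 15.2 and 12.5 CPM with HIF-1α, 25.9, 25.0 and 21.1 with HIF-2α, and 91.6, 88.4 and 73.1 with HIF-1α/2α. The 5 groups were ordered without any overlap between libraries. Set against WT cells, the log2 change was 1.16 ± 0.115 (SE, n = 3 per group, adjusted p = 4.29e-11) with HIF-2α/1α and 2.53 ± 0.11 (adjusted p = 6.29e-23) with HIF-1α. It was 3.27 ± 0.11 (adjusted p = 1.64e-27) with HIF-2α and 5.08 ± 0.113 (adjusted p = 2.93e-34) with HIF-1α/2α, a 33.9-fold increase.

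PPP1R3B, the second targeting subunit, followed the same order on a smaller scale. WT libraries held 9.90, 6.70 and 9.71 CPM and HIF-2α/1α libraries 10.7, 8.67 and 11.0 CPM, and these overlapped. HIF-1α libraries held 16.6, 13.6 and 16.3 CPM, HIF-2α libraries 21.2, 19.0 and 31.1, and HIF-1α/2α libraries 68.5, 52.8 and 57.9. The last 3 lines did not overlap with each other or with WT cells, and the third HIF-2α library stood above the other two. PPP1R3B was called in the HIF-2α line (log2 change 1.44 ± 0.125, adjusted p = 3.17e-13) and in the HIF-1α/2α line (2.77 ± 0.127, adjusted p = 1.52e-22). With HIF-1α it passed the p threshold below a fold change of 2 (0.83 ± 0.125, adjusted p = 9.68e-07). Other tested genes within 5 Mb of PPP1R3B, 83 in number, had a median log2 change of 0.215 in HIF-1α/2α and 0.178 in HIF-2α. The median was 0.372 in HIF-1α and 0.282 in HIF-2α/1α, and the part of these shifts in the result was not tested.

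GBE1, the branching enzyme, was highest in the lines with the structured domains of HIF-1α. Its levels were 54.9, 57.6 and 56.5 CPM in WT cells, 74.0, 73.0 and 73.6 with HIF-2α, and 74.4, 77.6 and 76.1 with HIF-2α/1α. They were 153, 145 and 138 CPM with HIF-1α and 163, 157 and 148 with HIF-1α/2α, and these last groups overlapped with each other but with no other. The calls were HIF-1α (log2 change 1.37 ± 0.0543, adjusted p = 2.45e-24) and HIF-1α/2α (1.47 ± 0.0544, adjusted p = 5.42e-26). Smaller increases passed the p threshold alone with HIF-2α (0.38 ± 0.0539, adjusted p = 8.5e-08) and with HIF-2α/1α (0.43 ± 0.0538, adjusted p = 1.55e-08). The 12 other tested genes within 5 Mb of GBE1 had median log2 changes of 0.418 with HIF-1α, 0.542 with HIF-2α, -0.604 with HIF-2α/1α and 0.0506 with HIF-1α/2α. The median with HIF-2α was larger than the change of GBE1 itself in that line, and the part of these shifts in the result was not tested.

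GYS1, the synthase itself, stood out in the HIF-1α line. It was at 85.8, 84.2 and 87.6 CPM in WT cells and at 160, 158 and 159 CPM with HIF-1α, which did not overlap with any other group. The other lines held 102, 97.6 and 95.2 CPM (HIF-2α/1α), 82.4, 78.7 and 79.5 CPM (HIF-2α) and 74.1, 80.4 and 78.2 CPM (HIF-1α/2α). The log2 change of 0.89 ± 0.0524 with HIF-1α (adjusted p = 3.13e-18, 1.85-fold) was below the fold threshold, as was that of 0.20 ± 0.0522 with HIF-2α/1α (adjusted p = 0.00372). With HIF-2α and HIF-1α/2α the differences were -0.10 and -0.15 (adjusted p = 0.156 and 0.0248).

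PGM1 had a similar profile, at 151, 150 and 155 CPM in WT cells and 249, 246 and 242 CPM with HIF-1α. The remaining lines held 183, 173 and 160 CPM (HIF-2α/1α), 170, 156 and 154 CPM (HIF-2α) and 176, 185 and 183 CPM (HIF-1α/2α). Only the HIF-1α libraries were clear of every other group, with a log2 change of 0.69 ± 0.0528 (adjusted p = 1.32e-14, 1.62-fold). HIF-1α/2α (0.25, adjusted p = 9.79e-05) and HIF-2α/1α (0.18, adjusted p = 0.00952) also passed the p threshold without reaching a fold change of 2.

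The other enzymes of synthesis did not rise. UGP2 lay between 81.6 and 93.4 CPM in all 15 libraries, and all neighbouring groups overlapped. Its 95% intervals against WT cells ran from -0.21 to 0.13 on the log2 scale over the 4 lines, which leaves out a fold change of 2. GYG1, the primer, was at 54.3, 56.3 and 58.8 CPM in WT cells, 51.9 to 54.1 CPM with HIF-2α/1α (adjusted p = 0.33), and lower still in the other lines, down to 43.6, 40.6 and 41.5 CPM with HIF-1α/2α. Its log2 change was -0.43 ± 0.0589 there (adjusted p = 5.09e-08), -0.31 with HIF-2α (adjusted p = 2.5e-05) and -0.23 with HIF-1α (adjusted p = 0.00181), all below a fold change of 2.

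The phosphorylases differed from each other. PYGL was at 87.3, 91.6 and 85.7 CPM in WT cells and 135, 138 and 146 CPM with HIF-1α/2α, a log2 change of 0.66 ± 0.0518 (adjusted p = 1.19e-14, 1.58-fold). In the other 3 lines it lay between 83.5 and 98.7 CPM, with log2 changes from -0.05 to 0.15. The 898 other tested genes of chromosome 14, where PYGL lies, had a median log2 change of 0.441 in the HIF-1α/2α line, against 0.0634 over all genes, and their part in the PYGL result was not tested. PYGB was between 289 and 312 CPM in WT cells, 269, 245 and 256 with HIF-2α, and 244, 257 and 248 with HIF-1α/2α. These decreases passed the p threshold but not the fold threshold, at -0.23 ± 0.0519 (adjusted p = 0.000381) and -0.27 ± 0.0519 (adjusted p = 4.25e-05). With HIF-1α and HIF-2α/1α PYGB differed from WT cells by 0.06 and 0.02 (adjusted p = 0.501 and 0.825).

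**Figure D2:**
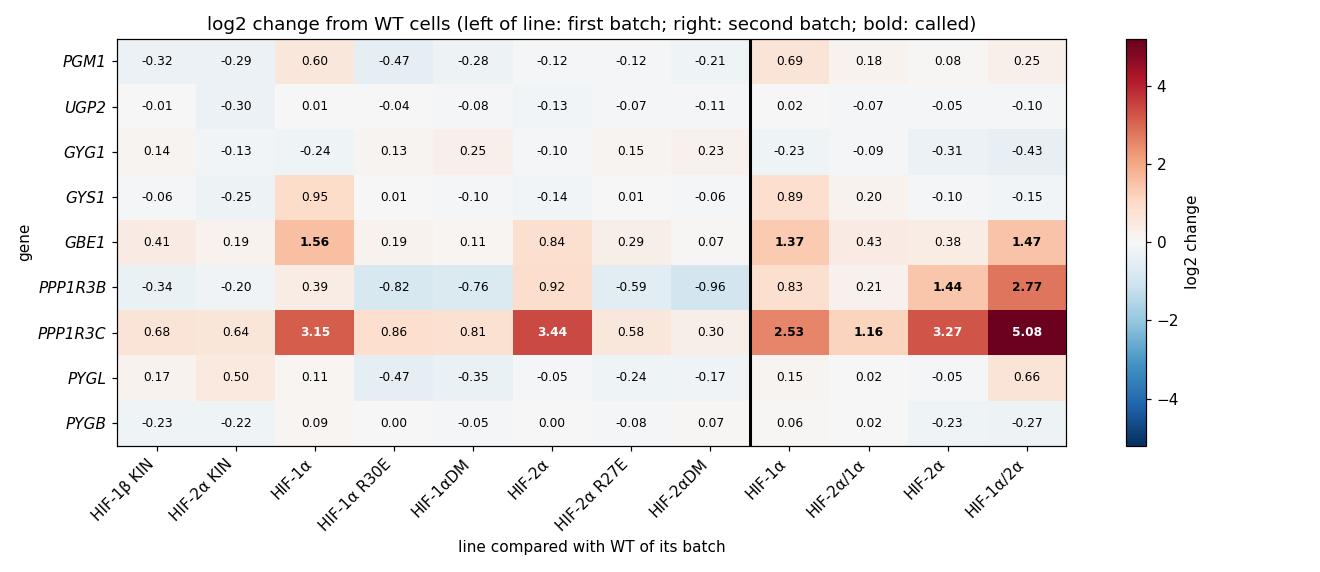
Log2 change of each gene (rows) from the WT cells of its own batch, for the 8 lines of the first batch and the 4 of the second (columns); colour and printed value give the change and bold marks called values. PPP1R3C is bold in 6 of 12 columns, GBE1 in 3, PPP1R3B in 2 and the other genes in none.

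The full-length isoforms were compared directly in the second batch. None of the 9 genes was called between HIF-2α and HIF-1α with edgeR or with DESeq2, against 3.79% of all genes tested, although 7 had an unadjusted p below 0.05 and 7 passed the adjusted p threshold. Of all 28724 genes tested, 9311 had an unadjusted p below 0.05. The number that passed the adjusted p threshold alone is not given. GYS1 (log2 difference -0.98 ± 0.0526), GBE1 (-0.98 ± 0.0538) and PGM1 (-0.62 ± 0.0528) were lower with HIF-2α than with HIF-1α. PPP1R3C (0.74 ± 0.0941) and PPP1R3B (0.61 ± 0.121) were higher. The adjusted p-values of these 5 ran from 8.8e-20 for GYS1 to 8.82e-05 for PPP1R3B. GYS1 and GBE1 were thus just short of a fold change of 2. PYGL (-0.20) and PYGB (-0.29) were slightly lower with HIF-2α, and UGP2 and GYG1 differed by -0.06 and -0.08 without passing.

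The 4 lines were then combined by part of the protein. The IDR effect is the mean of the lines with the HIF-2α IDR (full-length HIF-2α, and HIF-1α/2α) minus that of the lines with the HIF-1α IDR (full-length HIF-1α, and HIF-2α/1α), on the log2 scale. The structured-domain effect is the mean of the lines with the HIF-2α domains minus that of the lines with the HIF-1α domains. Among the glycogen genes 2 of 9 were called for the IDR effect, both higher with the HIF-2α IDR, against 4.41% of all genes. For the structured-domain effect 2 of 9 were called, both lower with the HIF-2α domains, against 1.04% of all genes.

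PPP1R3C was called for both parts, in opposite directions. Its IDR effect was 2.33 ± 0.0697 (adjusted p = 1.93e-29) and its structured-domain effect -1.59 ± 0.0687 (adjusted p = 1.93e-22). PPP1R3B had an IDR effect of 1.59 ± 0.0872 (adjusted p = 9.27e-20), and a structured-domain effect of -0.98 ± 0.0863 (adjusted p = 3.84e-12) that fell just short of a fold change of 2. The latter was called when HIF-1α replicate 2 (-1.01), HIF-2α replicate 3 (-1.09) or HIF-1α/2α replicate 2 (-1.0) was left out. Both regulators were therefore highest where the HIF-2α IDR was joined to the HIF-1α structured domains, and lowest of the 4 lines in the reverse chimera.

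GBE1 differed between the lines grouped by structured domain and not detectably between the lines grouped by IDR. The structured-domain effect was -1.01 ± 0.0380 (adjusted p = 1.71e-24) and the IDR effect 0.03 ± 0.0377 (95% interval -0.05 to 0.10, adjusted p = 0.663). The structured-domain value lies at the fold threshold, and it was -0.99, and no longer called, with DESeq2 and with median-ratio size factors. It also fell short of 2-fold when any 1 of 6 libraries was left out (replicate 1 of each of the 4 lines, and replicate 2 of HIF-2α and of HIF-1α/2α), with values from -1.0 to -0.98. The median structured-domain effect of the 12 other tested genes within 5 Mb was -0.378, and its part in the result was not tested.

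GYS1 and PGM1 had both effects negative, that is, higher on average with HIF-1α parts. This did not hold for GYS1 with the HIF-2α IDR. There its mean was 77.6 CPM on HIF-1α domains and 80.2 CPM on HIF-2α domains. For GYS1 the IDR effect was -0.66 ± 0.0371 (adjusted p = 1.85e-19) and the structured-domain effect -0.32 ± 0.0370 (adjusted p = 4.72e-09). For PGM1 they were -0.27 ± 0.0372 (adjusted p = 7.56e-08) and -0.35 ± 0.0372 (adjusted p = 8.05e-10). PYGL had an IDR effect of 0.22 and a structured-domain effect of -0.42, beside medians of 0.222 and -0.197 over the 898 other tested genes of chromosome 14, whose part was not tested. The effects were, in the same order, -0.29 and 0.00 for PYGB, -0.21 and 0.13 for GYG1, and -0.05 and -0.02 for UGP2. UGP2 passed the p threshold for neither part, and PYGB and GYG1 passed it for the IDR only.

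**Figure D3:**
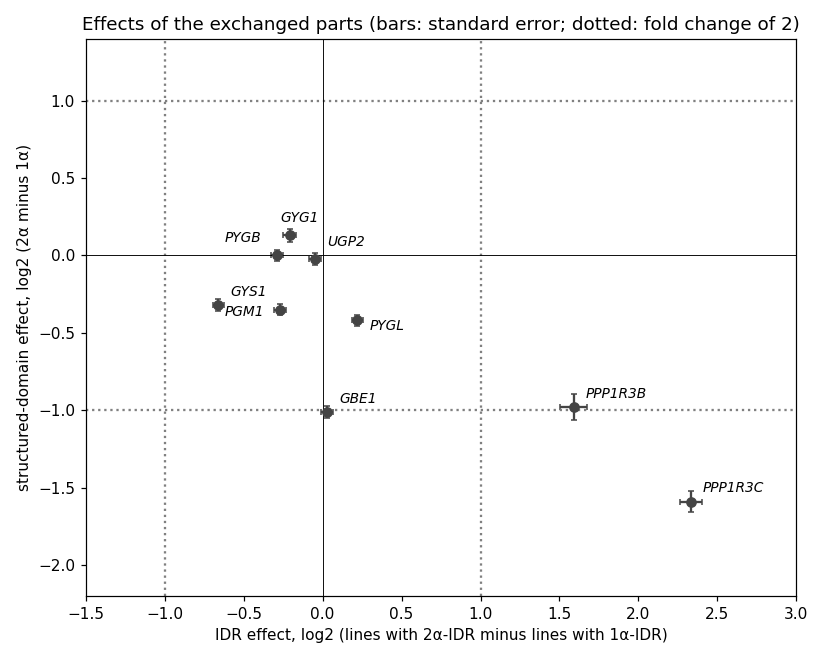
IDR effect (x axis) against structured-domain effect (y axis) of each glycogen gene in the second batch, both log2 differences with standard errors; dotted lines mark a fold change of 2. PPP1R3C and PPP1R3B lie at the lower right, GBE1 lies below the centre on the fold line, and GYS1 lies left of the other genes.

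Whether the IDR effect depended on the structured domains was tested as an interaction, the IDR difference on HIF-2α domains minus that on HIF-1α domains. No member was called with edgeR or with DESeq2 (1.18% of all genes were called). An unadjusted p below 0.05 was found for 5961 of the 28724 genes tested and for 5 members. The adjusted p threshold was passed by GYS1 (0.74 ± 0.0740, adjusted p = 4.73e-10), PYGL (-0.59 ± 0.0732, adjusted p = 1.04e-07), PGM1 (0.34 ± 0.0744, adjusted p = 0.00144) and PPP1R3B (-0.71 ± 0.172, adjusted p = 0.00402). For GYS1 the IDR exchange on HIF-1α domains took the mean from 159 CPM (HIF-1α) to 77.6 CPM (HIF-1α/2α), and on HIF-2α domains from 98.3 CPM (HIF-2α/1α) to 80.2 CPM (HIF-2α). For PPP1R3C the interaction was -0.44 ± 0.136 (adjusted p = 0.0286) and for GBE1 -0.15 ± 0.0754 (adjusted p = 0.249).

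In the first batch the HIF-1α and HIF-2α lines again differed from WT cells, and the KIN clones and mutants were not called. With HIF-1α 2 of 9 genes were called higher (3.78% of all genes called) and with HIF-2α 1 of 9 (5.73%). PPP1R3C was at 0.966, 0.724 and 0.977 CPM in WT libraries, 9.96, 7.97 and 5.89 CPM with HIF-1α, and 10.6, 10.9 and 7.60 CPM with HIF-2α. Both lines were clear of WT cells and overlapped with each other. The log2 change was 3.15 ± 0.295 with HIF-1α (adjusted p = 2.34e-08) and 3.44 ± 0.298 with HIF-2α (adjusted p = 3.29e-09), an 8.90-fold and a 10.8-fold increase.

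GBE1 was at 25.3, 28.7 and 32.3 CPM in WT libraries, 76.8, 79.4 and 98.0 CPM with HIF-1α, and 51.7, 51.2 and 51.4 CPM with HIF-2α. The 3 groups did not overlap. It was called with HIF-1α (1.56 ± 0.153, adjusted p = 5.75e-08), and with HIF-2α it passed the p threshold below the fold threshold (0.84 ± 0.151, adjusted p = 0.000247). The 7 other tested genes within 5 Mb had median log2 changes of -0.777 with HIF-1α and -0.343 with HIF-2α, opposite in sign to GBE1.

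GYS1 was at 87.7, 107 and 131 CPM in WT libraries and 222, 199 and 210 CPM with HIF-1α, without overlap. Its log2 change of 0.95 ± 0.173 (adjusted p = 0.000424, 1.93-fold) was below the fold threshold and crossed it, at 1.10, when the WT library numbered 3 was left out. PGM1 was at 122, 106 and 95.2 CPM in WT libraries and 210, 139 and 142 CPM with HIF-1α (log2 change 0.60 ± 0.234, adjusted p = 0.133, and 0.00894 in a fit blocked by replicate number). PPP1R3B was at 10.6, 8.76 and 4.98 CPM in WT libraries, 12.2, 12.5 and 7.22 CPM with HIF-1α, and 15.6, 17.8 and 12.8 CPM with HIF-2α. The HIF-2α libraries were clear of WT cells (log2 change 0.92 ± 0.333, adjusted p = 0.0672, and 0.000902 with the block), whereas the HIF-1α libraries overlapped with them (0.39 ± 0.331, adjusted p = 0.59). UGP2, PYGL, PYGB and GYG1 had log2 changes between -0.24 and 0.11 in both lines.

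**Figure D4:**
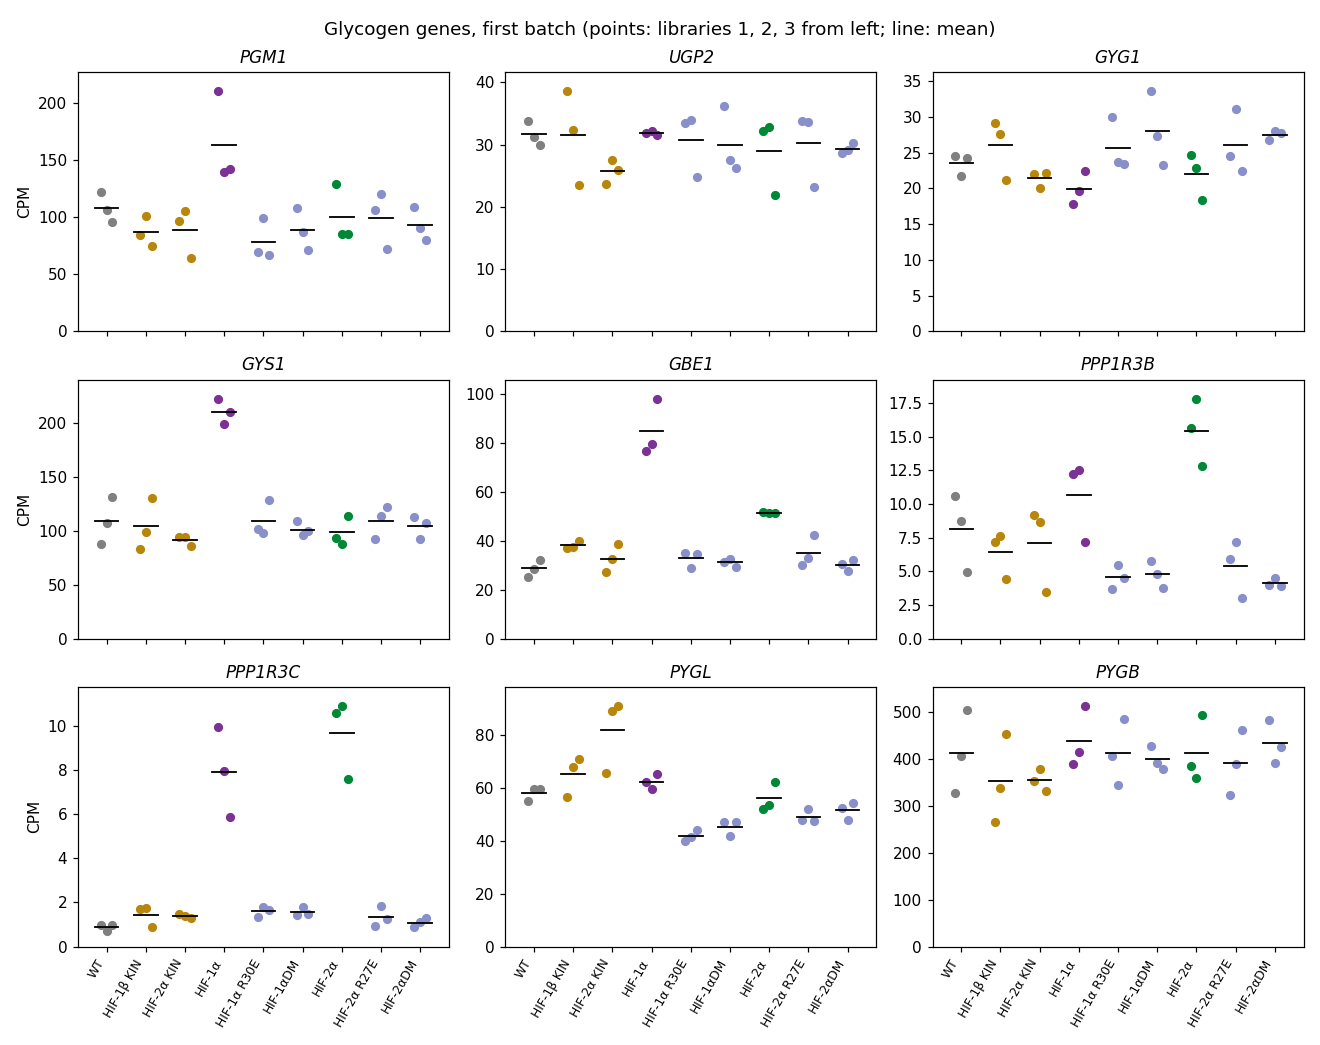
Level of each glycogen gene in CPM (linear axis from 0) in every library of the first batch, with replicates 1, 2 and 3 from left to right and a bar at the mean of 3. PPP1R3C is between 5.89 and 10.9 CPM in the HIF-1α and HIF-2α libraries and at most 1.83 CPM in all others, and the library numbered 3 is often displaced in PPP1R3B, UGP2 and PGM1.

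The lines with a mutant HIF-α ask whether DNA binding and dimerization are needed. Against WT cells none of the 9 genes was called, with edgeR or with DESeq2, in HIF-1α R30E (2.61% of all genes called), HIF-1αDM (0.431%), HIF-2α R27E (0.483%) or HIF-2αDM (0.470%). The number of members with an unadjusted p below 0.05 was 3, 3, 1 and 1. Over all 23410 genes tested it was 3848, 2032, 1718 and 1932. PPP1R3C averaged 1.61 ± 0.237 CPM (SD, n = 3) in HIF-1α R30E, 1.57 ± 0.191 in HIF-1αDM, 1.34 ± 0.455 in HIF-2α R27E and 1.09 ± 0.207 in HIF-2αDM, against 0.889 ± 0.143 in WT cells. PPP1R3B averaged between 4.16 and 5.38 CPM in the 4 mutant lines against 8.12 ± 2.87 CPM in WT cells, with log2 changes from -0.96 to -0.59 that did not pass. With all first-batch libraries numbered 3 left out, it was called lower in HIF-1α R30E (-1.05) and in HIF-2αDM (-1.18). PYGL was lower in HIF-1α R30E than in WT cells, at 40.1, 41.4 and 44.2 CPM against 55.0, 59.6 and 59.7 (-0.47 ± 0.134, adjusted p = 0.0335, and 0.00628 with the block).

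Set against their own mutants, the wild-type forms had more called genes. HIF-1α differed from HIF-1α R30E in 3 of 9 genes (1.75% of all genes called) and from HIF-1αDM in 3 of 9 (1.36%), all higher with HIF-1α. EPAS1 was also higher in the HIF-1α line than in either of its mutants, and its part in these differences was not tested. PPP1R3C was 4.91-fold higher than with HIF-1α R30E (log2 difference 2.30 ± 0.284, adjusted p = 3.93e-06) and 5.06-fold higher than with HIF-1αDM (2.34 ± 0.284, adjusted p = 3.74e-06). GBE1, at 32.9 ± 3.55 and 31.2 ± 1.62 CPM in these mutants, was higher with HIF-1α by 1.37 ± 0.152 (adjusted p = 7.73e-07) and 1.44 ± 0.153 (adjusted p = 4.69e-07). The 7 neighbours of GBE1 had a median difference of 0.488 against HIF-1α R30E, whose part in the result was not tested.

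GYS1 was called against HIF-1αDM (1.05 ± 0.173, adjusted p = 0.000306) and was just under the fold threshold against HIF-1α R30E (0.94 ± 0.173, adjusted p = 0.000888), where it reached 1.07 without the HIF-1α R30E library numbered 3. PGM1 was called against HIF-1α R30E (1.07 ± 0.235, adjusted p = 0.00616), a call lost without HIF-1α replicate 1 (0.85), HIF-1α R30E replicate 1 (0.99) or HIF-1α R30E replicate 3 (0.96), and with only these 2 groups in the fit. Against HIF-1αDM it differed by 0.88 ± 0.235 (adjusted p = 0.0368, and 0.000272 with the block). PPP1R3B was 1.21 ± 0.337 higher than in HIF-1α R30E (adjusted p = 0.0394) and 1.15 ± 0.336 higher than in HIF-1αDM (adjusted p = 0.0677), and both were called in the blocked fit (adjusted p = 0.000431 and 0.000652). PYGL, at 62.5 CPM with HIF-1α, was clear of HIF-1α R30E (41.9 CPM) and HIF-1αDM (45.4 CPM). Its differences were 0.58 ± 0.134 (adjusted p = 0.00964) and 0.46 ± 0.134 (adjusted p = 0.0651), both below the fold threshold.

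HIF-2α differed from HIF-2α R27E in 2 of 9 genes (3.66% of all genes called) and from HIF-2αDM in 2 of 9 (3.99%), in each case the regulators. PPP1R3C was higher by 2.85 ± 0.290 (adjusted p = 7.94e-08) and 3.14 ± 0.294 (adjusted p = 1.67e-08). PPP1R3B was higher by 1.52 ± 0.338 (adjusted p = 0.00354) and 1.89 ± 0.343 (adjusted p = 0.000367). The first of these PPP1R3B calls was lost without HIF-2α replicate 1 (1.48), HIF-2α replicate 2 (1.37), HIF-2α R27E replicate 1 (1.60) or HIF-2α R27E replicate 3 (1.2), and with only these groups in the fit (1.51). GBE1 was higher than with HIF-2αDM by 0.77 ± 0.151 (adjusted p = 0.000881) and than with HIF-2α R27E by 0.55 ± 0.150 (adjusted p = 0.0188, and 0.00179 with the block).

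Between HIF-2α and HIF-1α in the first batch 1 of 9 genes was called (2.40% of all genes), GYS1, which was lower with HIF-2α by 1.09 ± 0.173 on the log2 scale (adjusted p = 0.000124). GBE1 was also lower (-0.72 ± 0.150, adjusted p = 0.00274), below the fold threshold. PGM1 differed by -0.72 ± 0.234 (adjusted p = 0.0792, and 0.00201 with the block), PPP1R3B by 0.53 ± 0.331 (adjusted p = 0.49) and PPP1R3C by 0.28 ± 0.268 (adjusted p = 0.699).

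In the KIN clones no glycogen gene was called against WT cells with edgeR or with DESeq2, against 1.37% (HIF-1β KIN) and 4.11% (HIF-2α KIN) of all genes, and 2 members had an unadjusted p below 0.05 in each. Of all 23410 genes tested, 3034 (HIF-1β KIN) and 5263 (HIF-2α KIN) had an unadjusted p below 0.05. The lowest adjusted p of a member was that of PYGL in HIF-2α KIN, at 65.7, 89.4 and 91.0 CPM against 55.0, 59.6 and 59.7 CPM in WT cells, a log2 change of 0.50 ± 0.134 (adjusted p = 0.0145, and 0.00261 with the block). The 695 other tested genes of chromosome 14 had a median log2 change of 0.333 in this clone, against -0.0514 over all genes, and their part in the PYGL value was not tested. PPP1R3C was 0.68 ± 0.282 and 0.64 ± 0.284 above WT cells in HIF-1β KIN and HIF-2α KIN (adjusted p = 0.266 and 0.173).

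HIF-1α and HIF-2α lines were present in both batches, and a joint fit tested whether their responses differed. The difference (second batch minus first) was called for none of the 9 genes, with edgeR or DESeq2, and 1 member had an unadjusted p below 0.05 for each isoform. Of all 26763 genes tested, 1121 (HIF-1α) and 2425 (HIF-2α) had an unadjusted p below 0.05. Over all genes 0.00374% were called for HIF-1α, which is the single gene HIF1A, and 0% for HIF-2α. Differences of the members ran from -0.66 (PPP1R3C) to 0.39 (PPP1R3B) for HIF-1α and from -0.51 (GBE1) to 0.45 (PPP1R3B) for HIF-2α. For PPP1R3C the 95% intervals of the difference were -1.25 to -0.07 with HIF-1α and -0.80 to 0.37 with HIF-2α. For GBE1 with HIF-2α the interval was -0.85 to -0.17 (adjusted p = 0.311, and 0.00398 with the block). WT levels also differed between batches, which used different RNA extraction and library kits: UGP2 averaged 31.7 CPM in the first and 89.4 CPM in the second, and PPP1R3C 0.889 and 2.47 CPM.

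**Figure D5:**
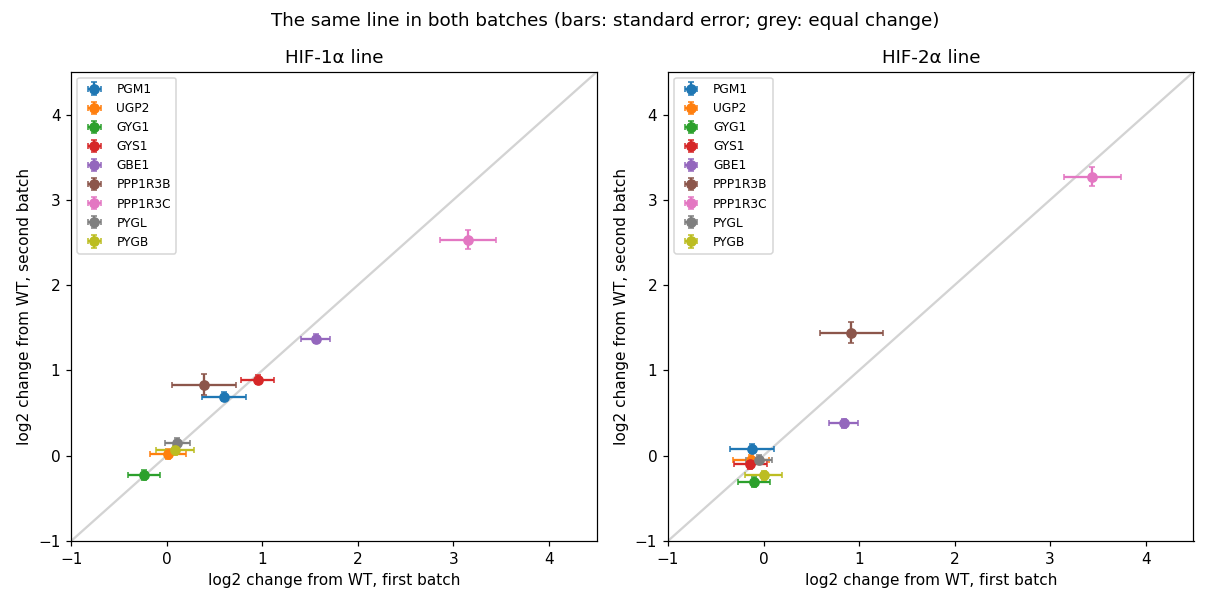
Log2 change from WT cells in the first batch (x axis) and the second (y axis) for the HIF-1α line (left) and the HIF-2α line (right), with standard errors; the grey line marks equal change. PPP1R3C with HIF-1α and GBE1 with HIF-2α lie below the line, PPP1R3B lies above it in both panels, and the errors are larger in the first batch.

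Over the 14 group means, each batch centred on its own mean log2 CPM, PPP1R3B and PPP1R3C had a Pearson correlation of 0.91, GBE1 and PPP1R3C of 0.82, and GYS1 and PGM1 of 0.87. GYS1 and PPP1R3C had one of 0.17, and GYG1 ran against PPP1R3B (-0.84). These are descriptions of 14 points, and the points of a batch share the mean that was subtracted from them. Among 12461 other genes, those most like PPP1R3C were MXRA5 (0.983), EGOT (0.963) and PLAC8 (0.959). Most like GBE1 were ERO1A (0.947), PFKFB4 (0.922) and BNIP3L (0.909). PPP1R3B was followed most closely by OSBPL10 (0.956), DENND2A (0.952) and EGOT (0.950), and GYS1 by BNIP3 (0.958), DDX41 (0.950) and GPI (0.945). With Spearman's coefficient none of these 12 was among the closest 3.

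The wider pathway was followed through 29 listed genes, of which 25 were tested in each batch. GYS2 (liver synthase), PPP1R3A, G6PC and G6PC2 were not tested. Over the 12 lines, at most 3 of 25 were called against WT cells, all of them higher, and the median log2 change of the list lay between -0.06 and 0.16. Of all genes tested, between 0.431% (HIF-1αDM) and 7.72% (HIF-1α/2α) were called in these comparisons, in either direction. The same 3 genes made up every call within the list. GAA, the lysosomal acid glucosidase that degrades glycogen, rose from 6.61, 5.60 and 6.27 CPM in second-batch WT libraries to 24.0, 24.2 and 22.1 in the HIF-1α line. It was at 24.4, 22.4 and 19.7 CPM in HIF-2α/1α, 19.0, 19.4 and 18.3 in HIF-2α, and 13.0, 15.2 and 13.6 in HIF-1α/2α libraries. All 4 lines were clear of WT cells, with log2 changes of 1.93, 1.85, 1.62 and 1.18, and GAA was called in each. In the first batch GAA was called with HIF-1α (1.95) and HIF-2α (1.34). Unlike the 9 members, GAA was also called there in HIF-1α R30E (1.33 ± 0.217, adjusted p = 0.000162), HIF-1αDM (1.22 ± 0.217, adjusted p = 0.00231) and HIF-2α KIN (2.52 ± 0.225, adjusted p = 1.12e-08). It averaged 35.8 CPM in HIF-2α R27E, 31.2 in HIF-2αDM and 29.2 in HIF-1β KIN, without a call, against 18.1 in WT cells. Neither HIF-1α nor HIF-2α differed from its own mutants by a GAA call. The 232 other tested genes within 5 Mb of GAA had a median log2 change of 0.529 in HIF-2α KIN, and the 268 tested in the second batch had one of 0.208 with HIF-1α/2α, whose part in these results was not tested.

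PPP1R3G and PPP1R3E, further glycogen-targeting subunits, were the other called genes. PPP1R3G was at 0.709, 0.550 and 0.551 CPM in second-batch WT libraries, 1.57, 2.02 and 1.62 CPM with HIF-1α, 1.80, 0.925 and 1.48 CPM with HIF-1α/2α, 0.671, 0.489 and 0.507 CPM with HIF-2α/1α, and 0.444, 0.307 and 0.247 CPM with HIF-2α. It was called higher with HIF-1α (1.52 ± 0.257, adjusted p = 7.06e-06) and HIF-1α/2α (1.23 ± 0.258, adjusted p = 0.000128), and its structured-domain effect was -1.86 ± 0.191 (adjusted p = 2.7e-10). In the first batch it was called higher with HIF-1α than in WT cells, HIF-1α R30E and HIF-1αDM (1.55, 2.08 and 1.82). PPP1R3E was called with HIF-1α (1.02), HIF-2α (1.29) and HIF-1α/2α (1.83) in the second batch, and with HIF-1α (1.13) and HIF-2α (1.16) in the first. Its IDR effect of 0.82 ± 0.106 (adjusted p = 1.49e-08) was below the fold threshold. PPP1R3E lies on chromosome 14, like PYGL, and the 163 other tested genes within 5 Mb of it had median values of 0.217 with HIF-2α, 0.446 with HIF-1α/2α and 0.238 for the IDR effect in the second batch, whose part in these results was not tested.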

How the data were processed

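The authors deposited a raw read count for each gene and library. They had aligned reads to hg38 with STAR, kept uniquely mapped reads and counted them with HTSeq (union mode, unstranded) on GENCODE genes. In this mode reads over exonic bases shared with an antisense gene count for neither gene, and RPKM still divides by all exonic bases. Counts of such genes are therefore uncertain. The methods and the submitters' processing notes differ on versions (STAR 2.7, SAMtools 1.9 and HTSeq 0.11.1 in the notes). The first batch used column-extracted RNA with added spike-in RNA, which was not used here, and the second TRIzol-extracted RNA with another library kit.

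Here edgeR 4.0.16 (R 4.3.3) was used. The filter on low counts, a mean normalized count of 0.5 or more, left 23410 genes in the first batch, 28724 in the second and 26763 in the joint fit. Each batch was fitted by a single quasi-likelihood model over all its groups with TMM scaling, and p-values were Benjamini-Hochberg adjusted over all genes tested, two-sided. Called means an adjusted p at or under 0.01 together with a change of 2-fold or more, thresholds taken from the study's methods. SE is the log2 change over the root of its F statistic, and intervals are 95%. CPM used library totals of 42377599 to 109642159 reads multiplied by their TMM factors, and 3 counts were the floor (counting error only). The 42 libraries were distinct. P-values measure the spread between replicates of 1 line, since no group had independently made lines. The fitting steps were tested on simulated data.

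First-batch replicate numbers paired the libraries: deviations from group means of same-numbered libraries in different groups had mean correlations of 0.35, 0.385 and 0.689 for numbers 1, 2 and 3, against -0.223 otherwise. Deviations cancel within each group, so the last value largely follows from the others and is no separate contrast. The fit with the number as a block is given beside a first-batch or joint result named in the report where it moved it past or short of a threshold.

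The members and lists were chosen with earlier results of these data known. Named are the 9 members everywhere, called genes of a 29-gene pathway list, HIF1A and EPAS1, the 3 genes most correlated with each of the 4 members called most often (mean normalized count of at least 50, group means of log2(CPM + 0.1)), and promoters of members called higher than WT in at least 2 second-batch lines. PPP1R3B's promoter is not reported here. A neighbour median over 5 Mb is given beside calls where it exceeded 0.2. Alternatives were DESeq2 1.42.0, median-ratio (RLE) size factors, no filter, fits of only the groups compared, the replicate block, leaving out each library and, chosen after seeing the data, leaving out the first-batch libraries numbered 3.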

Additional observations from a re-analysis of the deposited data

Results flagged for a closer look

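In the second batch 4 members passed the adjusted p threshold alone in the interaction test between IDR and structured domains. None of them was called, against 1.18% of all genes tested. The number of all genes that passed the adjusted p threshold alone is not given, so this count cannot be read against a background. The difference (IDR effect on HIF-2α domains minus that on HIF-1α domains) was 0.74 for GYS1, 0.34 for PGM1, -0.71 for PPP1R3B and -0.59 for PYGL on the log2 scale. Each has 3 libraries per line, and the adjusted p-values stand in the account of the interaction above. The 898 other tested genes of chromosome 14 had a median interaction of -0.179, in the direction of PYGL.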

How the results depend on the processing

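Over the 9 genes and 23 comparisons, 26 values were called and 7 more were called under at least 1 alternative, and none of these 33 changed direction under any alternative. Of 174 values never called, 52 had the opposite sign under some alternative. Leaving out 1 library at a time kept 210 values on their side of the threshold, lost 13 and gained 5. With the first-batch libraries numbered 3 left out, a choice made after seeing the data, the number of members called became 1 for HIF-1α R30E against WT cells, 1 for HIF-2αDM against WT cells, 5 for HIF-1α against HIF-1α R30E, 3 for HIF-1α against WT cells and 4 for HIF-1α against HIF-1αDM. The share of all genes called in that setting is not given, so these counts cannot be read against a background. For HIF-2α against HIF-2α R27E the number of members called was 1 in place of 2 with only these groups fitted, and 1 to 2 over the libraries left out. For the structured-domain effect it was 1 in place of 2 with DESeq2 and with RLE size factors, and 1 to 3 over the libraries left out; here GBE1 and PPP1R3B sit at the fold threshold. The replicate block changed no call of a member beyond those given above for PPP1R3B. In the second batch, same-numbered libraries had mean correlations of 0.0176, 0.125 and 0.147 (-0.0478 otherwise), weaker than in the first. The block left every count of members called in the second batch as it was, though the adjusted p of the PPP1R3C interaction became 0.000437. Background counts over all genes were less stable: for HIF-1αDM, HIF-2α R27E and HIF-2αDM against WT cells they were 101, 113 and 110, and 204, 195 and 200 with DESeq2, 208, 215 and 209 with no filter, and 204, 204 and 202 with the block. With only the groups compared they were 3 in place of 113 for HIF-2α R27E, 197 in place of 321 for HIF-1β KIN and 531 in place of 856 for HIF-2α against HIF-2α R27E. For the batch difference in the HIF-1α response they were 1, and 6 with no filter and 20 with the block, and for HIF-2α 0, and 43 with DESeq2, 86 with no filter and 163 with the block. The causes of these shifts were not tested. Fold changes near 2 and the 3 libraries per group limit the calls, and PPP1R3C rested on as few as 51 counts in a first-batch library.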
